A study of Mus musculus with 2 samples.

Results

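The genes described here detect double-stranded RNA inside the cell or pass that signal on. They are the cytosolic receptors Ddx58 (RIG-I), Ifih1 (MDA5) and Dhx58 (LGP2), the endosomal receptor Tlr3, the Z-form nucleic acid sensor Zbp1, the RNA-activated kinase Eif2ak2 (PKR), the RNA-editing enzyme Adar, the mitochondrial adaptor Mavs, the ubiquitin ligase Trim25 and the transcription factor Irf3. They were picked by symbol from the 23227 genes of the authors' deposited table. The rule found 10 of 10, and all 10 had a mean over both genotypes of at least 20 normalised reads, a minimum that 11710 genes reached. Zbp1 reached it only through its level in the knockout line, as given below.

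PolyA-selected RNA was sequenced from immortalised monoclonal lines of adult mouse mesenchymal stem cells, which the labels also call fibroblasts. The wild-type (WT) line carries floxed but intact Dicer alleles (Dicer f/f) and the knockout (KO) line lacks Dicer (Dicer -/-). The labels name no treatment, and both grew in Alpha-MEM with serum and penicillin-streptomycin and were lysed below confluence. Each genotype is 1 labelled sample from a monoclonal line, so a difference due to Dicer and a difference between clones cannot be told apart. The deposited value per genotype is a mean of read counts divided by size factors ("normalised reads"). That mean could be split into 2 libraries a genotype, called the deeper and the shallower after their totals, which lay between 14135422 and 15718369 reads. The labels do not name them as separate cultures, so the spread between them may be technical. Condition A of the table was read as WT and condition B as KO from the order of names in its title, and every direction below rests on that reading.

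Double-stranded RNA is a mark of viral replication, and cells also make it from their own repeats and overlapping transcripts. RIG-I and MDA5 bind it and engage MAVS, TLR3 signals through TICAM1, and both routes activate the kinases TBK1 and IKKε, IRF3 and NF-kB, which switch on interferon genes. Interferon in turn raises the transcription of most of these sensors. Dicer cuts double-stranded RNA and microRNA precursors, which makes the level of the other double-stranded RNA receptors a question for cells without it. ADAR edits such RNA so that MDA5 and PKR respond to it less.

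The promoters of some members hold a letter pattern typical of interferon-stimulated response elements, the sites bound by interferon regulatory factors. The pattern searched was GAAA, any 2 bases and GAAA again, on either strand (TTTC, any 2 bases and TTTC when read on the other), from 250 bases before to 50 after each RefSeq gene start (assembly GRCm38.p6, used for sequence alone, since the deposited table has no coordinates). Of the 8 members with an entry, Ddx58, Ifih1 and Eif2ak2 held it, 3 genes or 37.5%, against 3.99% of the 27025 genes in the promoter table. Among genes with an entry, the share was 3.60% of those that reached the minimum mean. It was 7.82% of those the authors' deposited table called higher in KO (adjusted p under 0.1). The same 3 members held the longer form with a C after the second GAAA, which 0.944% of genes hold and 4.23% of those called higher. Mavs, Adar (3 starts), Irf3, Tlr3 and Trim25 did not hold these letters in this window, and Dhx58 and Zbp1 had no entry. The 30 bases around each match are shown 5′ to 3′ on the gene's strand with the pattern in capitals. Members come first, followed by 4 genes described further on, all of which hold a match.
Ddx58: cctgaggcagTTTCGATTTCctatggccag
Ifih1: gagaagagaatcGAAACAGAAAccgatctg
Eif2ak2: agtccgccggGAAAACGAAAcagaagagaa
Oas1a: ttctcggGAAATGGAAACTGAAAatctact
Oas1g: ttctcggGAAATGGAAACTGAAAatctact
Isg15: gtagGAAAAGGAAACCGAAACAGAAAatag
Rsad2: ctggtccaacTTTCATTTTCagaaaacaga
All 7 lie on the minus strand. Their positions are chr4:40239804-40239833 for Ddx58, chr2:62646206-62646235 for Ifih1, chr17:78882535-78882564 for Eif2ak2, chr5:120907523-120907552 for Oas1a, chr5:120887609-120887638 for Oas1g, chr4:156200871-156200900 for Isg15 and chr12:26456553-26456582 for Rsad2. In the 3 members the match begins just after the annotated start, at base 3 for Ddx58, 33 for Ifih1 and 19 for Eif2ak2. In the other 4 it lies before the start. The windows of Oas1a and Oas1g are identical, and these genes are near copies of each other. Those 4 do not stand for all genes described further on. Oasl1, Oasl2, Irf1, Ifi44 and Xaf1 had an entry and no match. Of genes with an entry, 4 of 7 in the OAS list held the pattern. So did 7 of 16 in the list of interferons and receptor signalling, called the interferon receptor list below. They were Ifna1, Ifna2, Ifna4 and Ifna5, which had no read in any library, and Stat2, Socs1 and Isg15. The pattern was also held by 8 of 13 antiviral effectors, but by 0 of 18 genes that signal to IRF3 and NF-kB. A match describes letters and does not show that a factor binds there.

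The sensing genes were higher in the KO line as measured by their means, in 10 of 10 cases, where 49.6% of the genes tested had a higher KO mean. The authors' deposited table called Ddx58, Tlr3, Zbp1 and Trim25 higher at an adjusted p under 0.1, which is 4 of 10 against 3.91% of its 17303 genes with a p-value, and called 0 members lower, against 3.96%. Among the 11710 genes tested by size, these shares were 5.56% higher and 5.34% lower. By size, 5 of 10 were at least 2-fold higher with a counting interval above 1, these 4 and Ifih1, against 8.92% of genes tested, and 0 were at least 2-fold lower, against 8.56%. For all 10, the lower KO library exceeded the higher WT library, as it did for 30.4% of genes tested, and the reverse held for 0 members and 28.8% of genes tested. The median log2 ratio of KO over WT was 0.93 over the members and -0.00 over all genes tested. These members were chosen with results of these data known, so the counts describe them and test nothing about the group. In bulk RNA, more cells that use a gene and more of its RNA per cell cannot be told apart.

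**Figure D1:**
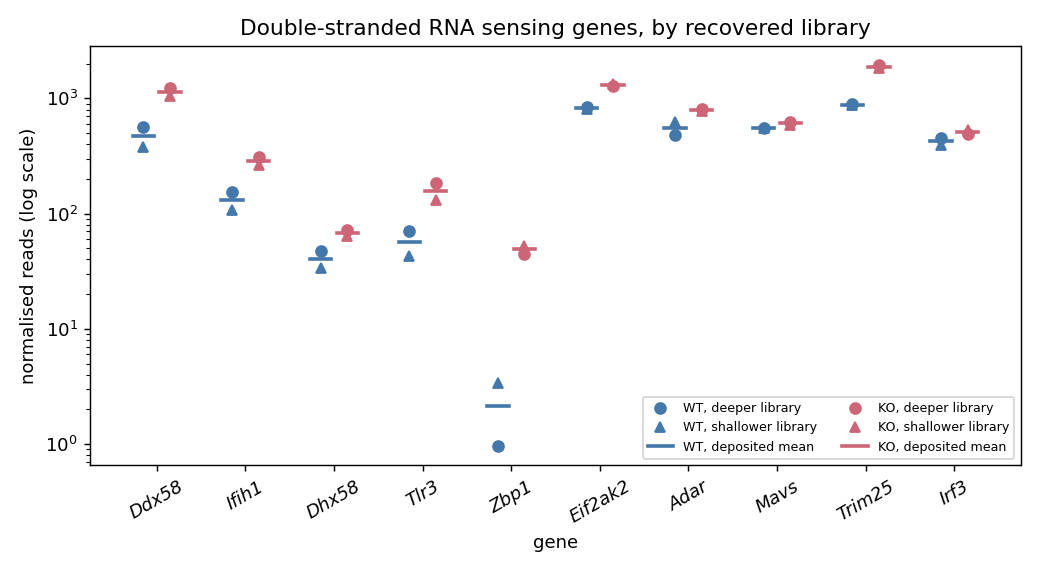
Normalised reads (log axis) of the 10 sensing genes in each recovered library. Circles are the deeper and triangles the shallower library, WT in blue and KO in red, and bars are the authors' deposited means. For every gene both KO points lie above both WT points, by a wide gap for Zbp1 and a narrow one for Mavs and Irf3.

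Ddx58 encodes RIG-I, which recognises short double-stranded RNA with a 5′ triphosphate. It had 566 and 379 normalised reads in the deeper and the shallower WT library and 1233 and 1057 in the KO libraries. The groups did not overlap, and the KO values were closer to each other in proportion than the WT values. The deposited mean rose 2.42-fold, from 472 to 1145, with a 95% exact interval of 2.25 to 2.62 that covers counting error alone (adjusted p = 0.0137 per the authors' deposited table).

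Ifih1 encodes MDA5, the receptor for long double-stranded RNA. Its WT libraries held 153 and 108 normalised reads and its KO libraries 308 and 263. The groups did not overlap, and the lower KO library was still well above the higher WT library. The ratio of means was 2.19 (interval 1.89 to 2.54), and its adjusted p of 0.105 in the authors' deposited table fell just short of the threshold. Without the shallower WT library the ratio was 1.86, below 2-fold.

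Dhx58 encodes LGP2, a relative of both that lacks their signalling domains and tunes MDA5 and RIG-I. It was a low gene, at 47.2 and 33.6 normalised reads in WT and 72.7 and 63.7 in KO. The ratio was 1.69 (interval 1.27 to 2.25, adjusted p = 0.750 per the authors' deposited table), and it was 2.03 without the deeper WT library. The libraries of the lines did not overlap, but with 79 reads in all in WT the size of the difference is poorly fixed.

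Tlr3, the receptor for double-stranded RNA in endosomes, was at 70.4 and 42.6 normalised reads in WT and at 183 and 132 in KO. Every KO value was far above every WT value, although each line's libraries differed from each other. The mean rose 2.79-fold, from 56.5 to 158 (interval 2.25 to 3.49, adjusted p = 0.0470 per the authors' deposited table).

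Zbp1 senses Z-form RNA and DNA and can start necroptosis through RIPK3. It changed most among the members, from 1 read in the deeper and 3 in the shallower WT library to 49 and 53 reads in the KO libraries, or 0.964 and 3.36 against 45.1 and 52.7 normalised reads. The gene was thus close to undetected in WT and present at a low level in both KO libraries. The ratio was 22.6, with an interval of 8.56 to 84.5 set by the 4 WT reads (adjusted p = 2.48e-04 per the authors' deposited table). It was 50.7 without the shallower and 14.5 without the deeper WT library. With 5 normalised reads added to each mean, the log2 ratio was 2.91 in place of 4.50. The symbol Zbp1 has also been used for Igf2bp1, a let-7 target that is far higher in KO. The table lists both genes in rows of their own, with 2336 normalised reads for Igf2bp1 and 48.9 for Zbp1 in KO, so the value given here is not that of Igf2bp1.

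Eif2ak2 encodes PKR, which halts translation by phosphorylating eIF2α when it binds double-stranded RNA. Its libraries were close together within each line, at 841 and 812 normalised reads in WT and 1286 and 1344 in KO. The ratio was 1.59 (interval 1.5 to 1.69), and the lines did not overlap, but the authors' deposited table did not call the gene (adjusted p = 0.399).

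Adar was at 485 and 628 normalised reads in WT and 812 and 772 in KO. The KO values were higher, with a ratio of 1.42 (interval 1.32 to 1.54) (adjusted p = 0.641 per the authors' deposited table). The table has 1 value for the gene and does not separate its interferon-inducible long form from the constitutive short form. In the GENCODE annotation its exons overlap those of Chrnb2 on the other strand. That gene had 6 reads in WT and 4 in KO, against 1063 and 1659 for Adar.

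Mavs, the adaptor on mitochondria through which RIG-I and MDA5 signal, showed the smallest difference. It was at 556 and 553 normalised reads in WT and 623 and 592 in KO, values that lay within a narrow band. The ratio was 1.1, with a counting interval of 1.01 to 1.19 (adjusted p = 1.00 per the authors' deposited table).

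Trim25, the ubiquitin ligase that assists RIG-I and ZAP, was at 895 and 871 normalised reads in WT and 1948 and 1829 in KO. Libraries of a line were nearly equal, and the lines were far apart. The mean rose 2.14-fold, from 883 to 1889 (interval 2.02 to 2.27, adjusted p = 0.0367 per the authors' deposited table).

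Irf3, the factor that carries the signal into the nucleus, was at 453 and 395 normalised reads in WT and 492 and 535 in KO. The lines did not overlap, but the gap between the nearest libraries was smaller than that between the WT libraries. The ratio was 1.21 (interval 1.11 to 1.33, adjusted p = 1.00 per the authors' deposited table). Irf3 shares exon sequence on opposite strands with Bcl2l12, which had 90.6 normalised reads in WT and 83.2 in KO. Strand use in counting is not given in the sources used here, so reads of such a pair cannot be told apart. Dhx58, Tlr3 and Eif2ak2 also overlap non-coding genes on the other strand, which were not used here.

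Among the sensors Ddx58, Ifih1, Dhx58, Tlr3 and Zbp1 the ratios ran from 1.69 to 22.6. Those of Mavs, the adaptor of RIG-I and MDA5, and of Irf3 were 1.1 and 1.21. The members did not split cleanly by role. Trim25, which is not a sensor, had a ratio of 2.14, within the range of these sensors. Eif2ak2, whose protein also binds double-stranded RNA, was below that range at 1.59, as was Adar at 1.42. Whether members differ from each other was not tested. Of the members with the promoter pattern, Ddx58 was called and Ifih1 and Eif2ak2 were not, while Tlr3 and Trim25 were called and have no match in the window.

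**Figure D2:**
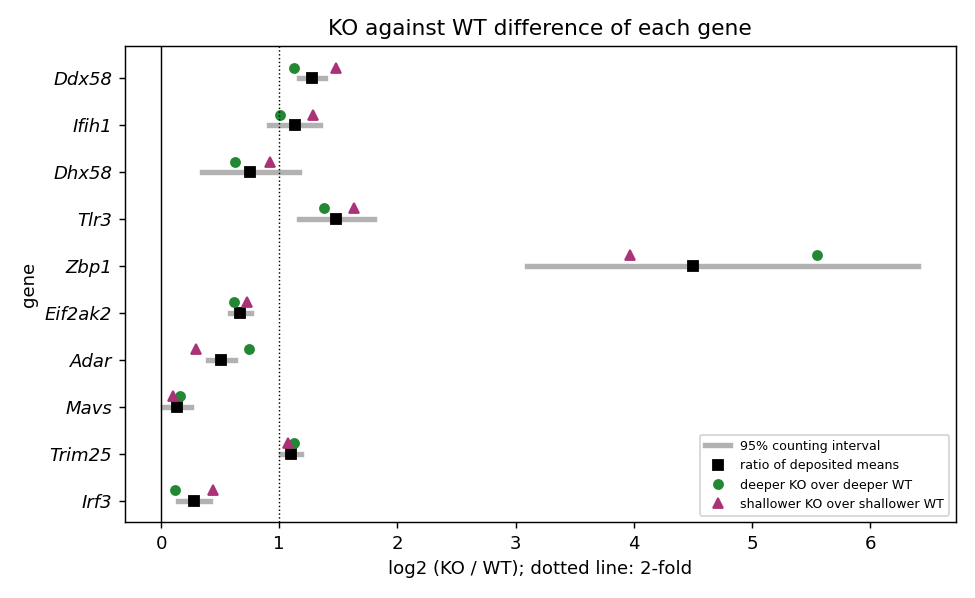
The log2 ratio of KO over WT for each sensing gene. Squares are ratios of the deposited means with 95% counting intervals in grey, circles compare the deeper and triangles the shallower libraries of both lines, and the dotted line marks 2-fold. The values of all 10 genes lie to the right of 0, from 0.13 for Mavs to 4.50 for Zbp1.

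The 4 libraries also allowed a test of their own. Its SE and p-values rest on the spread between libraries of a line, which may be technical. They do not measure variation between cultures or clones. In limma on log2 values, with p-values adjusted over all genes tested, 3 members passed 0.05, all higher in KO, against 4.56% of genes tested that were higher and 4.13% that were lower. They were Trim25 (log2 difference 1.1 ± 0.15 SE, n = 2 libraries a genotype, adjusted p = 0.0232), Zbp1 (4.37 ± 0.72, limma adjusted p = 0.0359) and Ddx58 (1.30 ± 0.25, limma adjusted p = 0.0483). Eif2ak2, Ifih1 and Tlr3 came next, with limma adjusted p = 0.0631, 0.0767 and 0.0841. With the libraries paired by rank of depth, a pairing read from the data, 6 members passed (18.4% of genes tested were then higher and 17.8% lower), these 3 and Eif2ak2, Ifih1 and Tlr3. With 1 library left out, an alternative chosen after seeing the data, limma called fewer members. Such fits leave a line with 1 library, so only ratios of means are given here. For Trim25, Zbp1 and Ddx58 they were 2.17, 14.5 and 3.02 without the deeper WT library. Without the shallower WT library they were 2.11, 50.7 and 2.02. Without the deeper KO library they were 2.07, 24.4 and 2.24, and without the shallower one 2.21, 20.8 and 2.61.

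Libraries of a line differed for some members in the same way in both lines. Ddx58, Ifih1, Dhx58 and Tlr3 were 1.4 to 1.65 times higher in the deeper than in the shallower WT library and 1.14 to 1.38 times higher in the deeper KO library. Over all members, 6 of 10 were higher in the deeper library of both lines, and 38.4% of genes tested were. Compared at like depth rank, KO over WT was 2.18 and 2.79 for Ddx58, 2.01 and 2.44 for Ifih1, 1.54 and 1.89 for Dhx58, and 2.60 and 3.11 for Tlr3 in the deeper and the shallower pair. Each of these 4 was higher in KO within both pairs, which follows from the lack of overlap, and somewhat more so in the shallower pair.

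Levels were set against transcript length to compare genes with each other, using the longest spliced transcript of each gene in GENCODE M21, which is not the authors' annotation. On this scale of normalised reads per kb, the highest members in WT were Irf3 (209), Eif2ak2 (192), Mavs (181), Trim25 (158), Ddx58 (122) and Adar (94.2). Ifih1 (23.8), Dhx58 (16.8) and Tlr3 (12.8) formed a lower group, and Zbp1 (0.651) was last. Irf3 and Eif2ak2, Ddx58 and Adar, and Dhx58 and Tlr3 overlapped in their libraries and have no order. In KO, Trim25 led (338 normalised reads per kb), followed by Eif2ak2 (305), Ddx58 (295), Irf3 (253), Mavs (199), Adar (134), Ifih1 (52.2), Tlr3 (35.8), Dhx58 (28.3) and Zbp1 (14.7). There Eif2ak2 and Ddx58, and Tlr3 and Dhx58, overlapped. Trim25 and Ddx58 had passed Irf3 and Mavs, while the cytosolic helicases Ifih1 and Dhx58 and the receptor Tlr3 stayed below Adar in both lines.

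**Figure D3:**
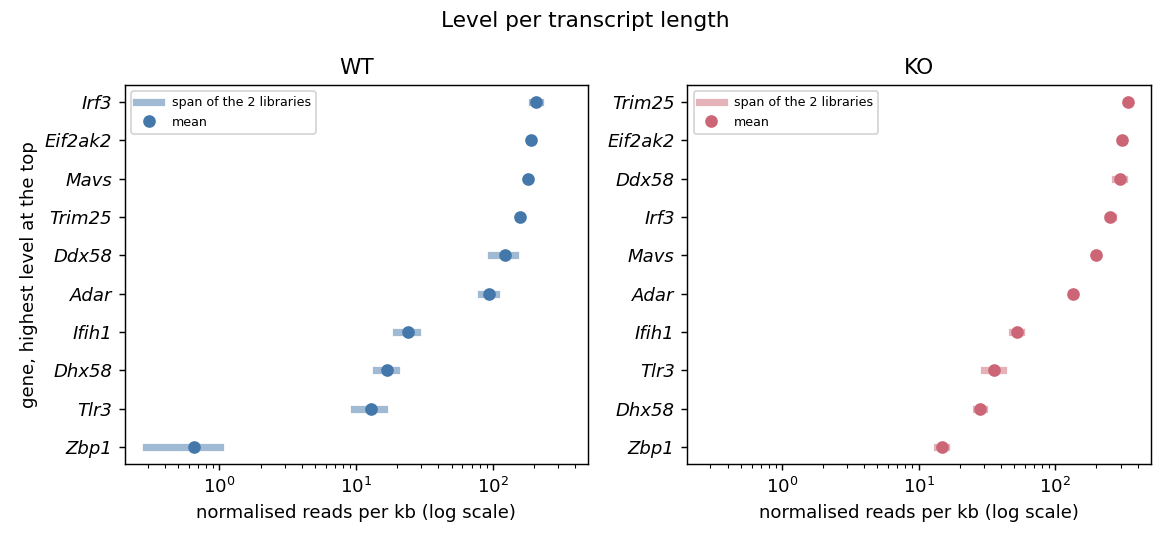
Normalised reads per kb of transcript (log axis) in WT and KO, each panel ordered from the highest gene to the lowest. Points are means and thick lines span both libraries of the line. Irf3 heads the WT panel at 209 and Trim25 the KO panel at 338, and Zbp1 is last in both.

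Genes around the sensors were taken from lists of 150 genes in all, grouped by role. The authors' deposited table called 17 of them higher and 5 lower, against 3.91% and 3.96% of all genes with a p-value. Of the 126 tested by size, 21 were at least 2-fold higher and 6 at least 2-fold lower, against 8.92% and 8.56% of genes tested. The counts of lower genes do not exceed these shares. The same shares apply to each list below, where a few called genes say little about the list. Their median log2 ratio was 0.15, and it was 0.25 without the shallower WT library.

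The OAS enzymes also bind double-stranded RNA and make a short nucleotide messenger from ATP. The authors' deposited table called 4 of 10 genes of this list higher and 0 lower, and the median log2 ratio of the 5 tested by size was 2.94. Oas1a had 1 read in each WT library and, in normalised reads, 51.5 and 50.7 in the KO libraries. The ratio was 49.0 (interval 13.2 to 410.2, adjusted p = 2.30e-05 per the authors' deposited table). Oas1g had 0 reads in WT and 19.3 and 19.9 in normalised reads in the KO libraries. It was at least 12.5-fold higher against a floor of 3 reads over both WT libraries (adjusted p = 0.0132 per the authors' deposited table). Reads of these near copies may be shared between them. Oasl2 rose 17.3-fold, from 13.3 to 231 normalised reads, and Oasl1 7.66-fold, from 22.5 to 172 (adjusted p = 6.99e-05 and 8.73e-05 per the authors' deposited table). Abce1, a ribosome recycling factor in this list, had a ratio of 0.830 and was not called.

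Of 19 other double-stranded RNA-binding proteins and helicases, the authors' deposited table called 0 higher and 1 lower. The median log2 ratio of the 17 tested by size was 0.09, but 0.01 without the deeper WT library and -0.04 without the shallower KO library. Stau2, a protein of RNA transport, fell 5.22-fold from 137 to 26.2 normalised reads (adjusted p = 5.17e-04 per the authors' deposited table). Its KO libraries were at 15.6 and 36.8, and its ratio was 0.192 with both and 0.114 without the shallower one. Tarbp2 and Prkra, the partners of Dicer, had ratios of 1.51 and 0.951, and the authors' deposited table gives adjusted p = 0.515 and 1.00 (this choice was made with the values known). The helicase gene Ddx3x, with the most reads of this list, had a ratio of 1.32 and was not called.

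Of 22 genes that carry the signal to IRF3 and NF-kB, the authors' deposited table called 3 higher and 0 lower, with a median log2 ratio of 0.20. That median was 0.05 without the shallower KO library and 0.09 at a minimum mean of 50. Irf1, an interferon-induced relative of Irf3, was at 488 and 450 normalised reads in WT and 1589 and 2115 in KO and rose 3.95-fold (adjusted p = 6.32e-06 per the authors' deposited table). Ikbke, the inducible kinase of IRF3, rose 2.80-fold, from 74.6 to 209 normalised reads, and its partner Tbkbp1 rose 6.67-fold, from 6.58 to 43.9 (adjusted p = 0.0306 and 0.0523 per the authors' deposited table). Without the deeper WT library the ratio of Ikbke was 4.44. Tbk1, the constitutive kinase, was level at 1033 and 970 normalised reads in WT and 1035 and 1006 in KO, a ratio of 1.02. The TLR3 adaptor Ticam1 had a ratio of 0.90, and neither passed in that table. Both were singled out after their values were seen, and Map3k7, with the most reads of this list, had a ratio of 0.790 and was not called.

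Among 24 regulators of the RIG-I-like receptors and MAVS, the authors' deposited table called 0 higher and 2 lower, both by a large factor. Nlrx1, a mitochondrial protein described as a brake on MAVS, had 127 reads in WT and 2 in KO, or 75.2 and 54.9 against 0 and 1.99 normalised reads. The ratio was 0.0153 (interval 0.00183 to 0.0564, adjusted p = 3.41e-07 per the authors' deposited table). It was 0.0306 without the deeper KO library, and at least 23.6-fold lower without the shallower one, where no read was left. Nlrc5, a NOD-like receptor that drives MHC class I genes and has been linked to RIG-I signalling, was at 1852 and 638 normalised reads in WT and at 45.1 and 21.9 in KO. It fell 37.2-fold (adjusted p = 0.0399 per the authors' deposited table), with WT libraries far apart from each other and both far above KO. Its ratio was 0.0269 with all libraries, 0.0525 without the deeper WT library and 0.0176 without the deeper KO library. The median log2 ratio of the 23 genes tested by size was 0.02, with -0.03 without the deeper WT library and 0.13 without the shallower one. Ywhae, a chaperone of RIG-I and the gene with the most reads, had a ratio of 1.17 and was not called.

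Of 13 genes that act after PKR and ZBP1, 0 were called in either direction in the authors' deposited table and 0 were past 2-fold, and the median log2 ratio was 0.11. It was 0.03 without the deeper KO library, 0.22 without the shallower one and 0.21 without the deeper WT library. Atf4, whose protein is made when eIF2α is phosphorylated, was at 5034 and 5566 normalised reads in WT and 9829 and 5827 in KO, so that 1 KO library stood apart from the others (ratio 1.48). Ripk3 and Mlkl, which act after ZBP1, were chosen with their values known. Their ratios were 0.568 and 0.849 (adjusted p = 0.331 and 1.00 per the authors' deposited table).

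The interferon genes in the list of interferons and receptor signalling were at or near 0 in all libraries. Other interferon genes were not examined. How reads that match several genes were counted is not given in the sources used here. Of 9 interferon genes in the list, 7 had no read in any library (Ifna1, Ifna2, Ifna4, Ifna5, Ifnk, Ifnl2 and Il28b), which allows up to 2.76 to 3.36 normalised reads a library, for counting error only. Ifnb1 had 1 read in WT and 0 in KO, and Ifne had 1 and 2. The receptor and its signalling chain were expressed in both lines, and the median log2 ratio of the 10 tested genes of the list was 0.76. It was 1.12 without the deeper WT library and 0.99 without the shallower KO library, and 0.51 and 0.47 without the shallower WT and the deeper KO library. Isg15, the ubiquitin-like protein induced by interferon, rose 5.27-fold, from 48.2 and 13.5 to 204 and 120.4 normalised reads (adjusted p = 0.0257 per the authors' deposited table). It was 12.1-fold higher without the deeper WT library and 3.37-fold without the shallower one. Stat2 and Irf9, factors activated by the receptor, stood at ratios of 1.71 and 1.77 (adjusted p = 0.829 and 0.564 per the authors' deposited table), a choice made with the values known. Jak1, with the most reads, had a ratio of 0.613 and was not called.

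Antiviral effector genes are induced by interferon and in part directly by IRF3. Of 16, the authors' deposited table called 8 higher and 0 lower, and the median log2 ratio of the 14 tested by size was 1.67. By size, 10 were at least 2-fold higher and 1 lower. Rsad2 (viperin) had 3 reads in the deeper WT library and none in the shallower one, against 383 and 166 normalised reads in the KO libraries. The ratio was 189.8 (interval 64.6 to 923, adjusted p = 2.66e-04 per the authors' deposited table). It was 94.9 without the shallower WT library, at least 81.6-fold higher without the deeper one and 115 without the deeper KO library. Ccl5 rose 17.0-fold, from 5.62 to 95.2 normalised reads, Ifi44 33.0-fold, from 4.34 to 143, and Xaf1 4.80-fold, from 23.7 to 114 (adjusted p = 1.98e-06, 0.0520 and 0.00269 per the authors' deposited table). The ratio of Ifi44 was 16.5 without the shallower WT library and 17.4 without the deeper KO library. Some were lower in KO without being called. Ifit2 was at 609 normalised reads in WT and 328 in KO (adjusted p = 0.181 per the authors' deposited table). Irgm1, named after its values were seen, is the gene at least 2-fold lower, at 377 and 672 in WT and 284 and 179 in KO (ratio 0.442, adjusted p = 0.408 per the authors' deposited table). This list, the interferon receptor list and the OAS list also differed between libraries of a line, with median log2 differences of the deeper over the shallower library of 0.41, 0.61 and 0.44 in WT and 0.33, 0.37 and 0.62 in KO. Over all genes tested these were 0.01 and 0.02, and the part of this in the results was not tested.

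Sensors of DNA and other Toll-like receptors were read beside the sensors of double-stranded RNA. Of 9 genes of cytosolic DNA sensing, the authors' deposited table called Aim2 higher and Rnaseh2c lower, and the median log2 ratio of the 8 tested by size was -0.27, which became -0.08 without the deeper WT library and -0.04 without the deeper KO library. Aim2, an inflammasome sensor, had 2 reads in WT and 46 in KO, a ratio of 21.2 (interval 5.54 to 180, adjusted p = 0.0414 per the authors' deposited table). Rnaseh2c, a subunit of the nuclease that removes RNA from DNA, fell 2.31-fold, from 802 to 348 normalised reads (adjusted p = 0.0210 per the authors' deposited table). Samhd1 had a ratio of 0.747 and was not called. Of the list of 10 for other Toll-like receptors, the authors' deposited table called 0 in either direction, and Tlr7, Tlr8 and Tlr9, the endosomal receptors for other nucleic acids, had at most 3 reads over a line's libraries. Their adaptor Myd88 had a ratio of 0.686 and was not called. Of 8 genes of RNA clearance, Wdr61, a part of the cytosolic Ski complex, fell 2.17-fold, from 992 to 457 normalised reads (adjusted p = 0.0402 per the authors' deposited table), and Exosc10 had a ratio of 0.861.

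**Figure D4:**
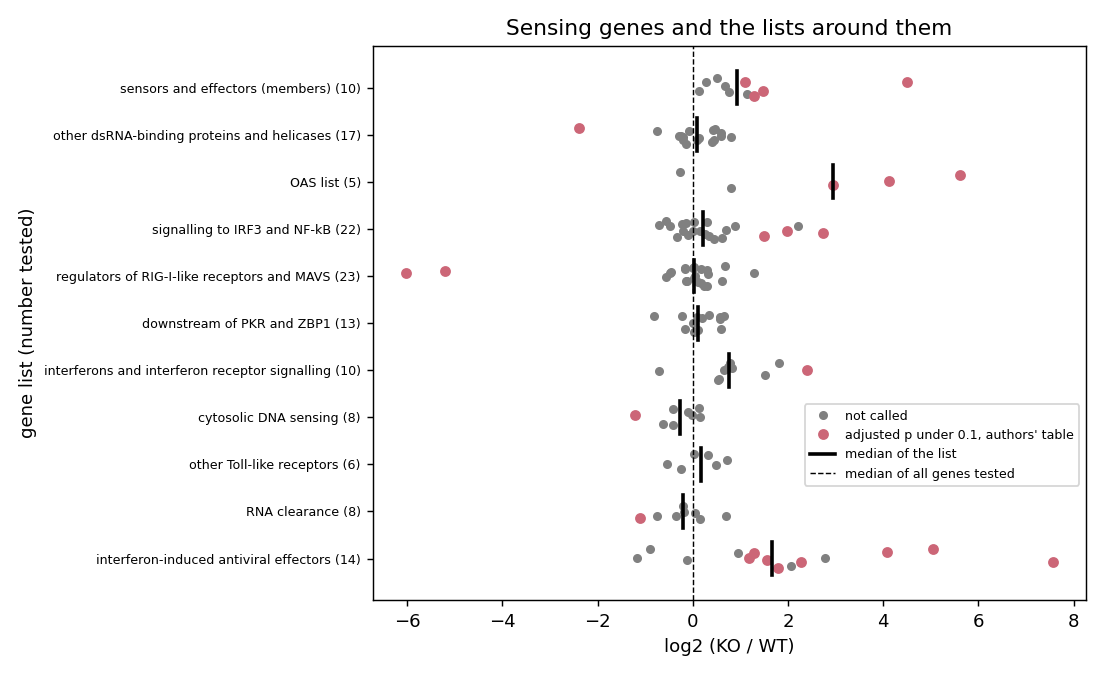
The log2 ratio of KO over WT of each gene tested by size, by list, with the double-stranded RNA sensing genes at the top and the number tested in brackets. Red points passed an adjusted p of 0.1 in the authors' deposited table, black bars are list medians and the dashed line is the median of all genes tested. The medians of the sensing genes (0.93), the OAS list (2.94), the interferon receptor list (0.76) and the antiviral effectors (1.67) lie to the right of the dashed line, and Nlrx1 and Nlrc5 form the far left.

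The targeted gene and markers of cell type were read in the same libraries. Dicer1 had 804 and 943 normalised reads in WT and 573 and 557 in KO (ratio 0.647), and a value per gene does not show whether the deleted part is missing. Of 10 mesenchymal markers 9 were detected in both lines, with Thy1 at 0 in every library. Their summed level was 158841 to 190250 normalised reads in WT and 89208 to 108318 in KO. Most of that sum lay in Col1a1, Col1a2 and Vim, at 41238, 77682 and 44382 in WT and 17828, 37792 and 30576 in KO. The authors' deposited table called 0 of these markers higher and 2 lower, against 3.91% and 3.96% of genes with a p-value. The lower ones were Col1a1 and Col1a2 (ratios 0.432 and 0.486, adjusted p = 0.0121 and 0.0419 per the authors' deposited table). Of the 9, 4 had a higher KO mean: Pdgfrb, Ly6a, Cd44 and Nt5e, with ratios of 1.41, 1.41, 1.11 and 1.06. Markers of other cell types that a culture could hold were also summed, and their part in the sensor results was not tested. Of 11 haematopoietic markers Itgax, Cd3e and Siglech were at 0, while Ptprc had 1 read in WT and 3 in KO. The summed level of this list was 68.4 to 72.9 normalised reads in WT and 263 to 556 in KO. Most of that difference lay in Cd74, the MHC class II invariant chain, at 36.6 and 15.7 in WT and 506 and 205 in KO. Cd74 was called higher (ratio 13.6, adjusted p = 0.0720 per the authors' deposited table). Without Cd74 the sum was 31.8 to 57.2 in WT and 49.7 to 57.7 in KO. Of 6 endothelial markers Tie1 was at 0 in KO, and the sums were 16.4 to 16.8 in WT and 13.8 to 20.9 in KO. Of 6 epithelial markers Epcam was at 0 throughout, and the sums were 25.8 to 35.7 in WT and 5.52 to 14.9 in KO.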

How the data were processed

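The labels give 1 polyA RNA sample per genotype, prepared with an Illumina Tru-Seq kit and sequenced as pairs of 50 bases. Mouse build mm9, TopHat 1.4.0 and DESeq 1.10.1 appear, without role or order, in the submitters' processing notes. Which read counter, strand setting and gene annotation were used is not given in the sources used here. The deposited columns are those of a DESeq comparison, per the file headers. For each genotype the authors deposited 1 signal a gene, a mean of reads scaled by size factors. The deposited ratio (fold) and log2 value are KO over WT and matched the means. P-values, raw and adjusted, are the authors' deposited ones. Of 23227 genes, 5924 were listed at 0.

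Each mean is a sum of whole multiples of 2 steps. Whole read numbers that give the mean were sought, and 100% of the genes above 0 (16386 in WT, 16350 in KO) had exactly 1 solution within a tolerance of 1e-09 to 1.45e-08 reads that grew with the mean, and size factors recomputed from these reads matched the steps. Calls used the authors' adjusted p under 0.1. The size rule needed a mean of at least 20, a 2-fold ratio and a 95% Clopper-Pearson interval excluding 1. Intervals and the floor of 3 reads cover counting error only: without molecular identifiers, reads are not independent molecules. limma 3.58.1 (R 4.3.3, trended variances) was run on log2(normalised reads + 0.5) of the 4 libraries. A check of the code on simulated reads gave every gene the same spread beyond counting error. It therefore does not speak for genes whose libraries of a line differ more. The design assumed 1 sample a genotype, so limma is an alternative to the authors' test. Mb21d1 and Ifnl2 were matched by older symbols. Members, lists and rules were chosen with earlier results of these data known. Members are all described. From each other list the text names up to 4 called genes by size of change and the uncalled gene with the most WT reads, and says where a further gene was chosen after its values were seen. Alternatives were other thresholds, filters, pseudocounts, scalings and libraries left out. Some single genes of the lists are not reported here.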

Additional observations from a re-analysis of the deposited data

How the results depend on the processing

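Each member had 9 alternatives: 2 other scalings, 5 added to each mean, each library left out, and pairs of like depth. The pairs were chosen after seeing the data. All 90 log2 ratios were above 0. Both KO libraries of every member exceeded both WT libraries, so only the 2 other scalings could have reversed a direction. In 3 of the 90 the ratio moved by more than the spread between libraries. These were 2.91 for Zbp1 with 5 added to each mean, and 0.19 for Mavs and 0.73 for Eif2ak2 with totals. The number of members at least 2-fold higher ranged from 4 to 6 with a library left out (7.51% to 11.5% of genes tested), and was 7 at 1.5-fold (17.3%). The number called higher rested on the test. By the authors' own test it was 4 at an adjusted p of 0.1 (3.91% of genes with a p-value). It was also 4 at 0.05, where no share of all genes was taken. In limma at 0.05 it was 3 (4.56% of genes tested), and 3 with a pseudocount of 5 (4.62%). It was 2 with all genes that had a read (2.65%) and 2 with totals in place of size factors (4.4%). With the replicate block by rank of depth it was 6 (18.4%). At 0.1, a threshold added after seeing the data, limma called 6 (9.06%). With each library left out in limma, an alternative chosen after seeing the data in which the lone library of a line is assumed to vary like the others, it ranged from 0 to 2 (2 without the deeper WT library, 1 without the shallower WT library and 0 without either KO library, where 0 of all genes were called higher). Those fits have fewer samples. Members called lower were 0 in every alternative, which the separation of the libraries fixed in advance. The interferon response motif was found in 3 members in either form. The 10 members with separated libraries remained 10 with totals. Genes at least 2-fold higher in the other lists were 21 (8.92% of genes tested), and 20 to 26 with a library left out (7.51% to 11.5%). Those at least 2-fold lower were 6 (8.56% of genes tested), and 6 to 7 with a library left out. List medians moved with single libraries left out, from 0.47 to 1.12 for the interferon receptor list, 1.36 to 2.06 for the antiviral effectors and 2.56 to 3.23 for the OAS list. Those of the other lists lay between -0.32 and 0.57. Depth limits the members Zbp1 and Dhx58, with 4 and 79 WT reads, and the other named genes with few WT reads, among them Oas1a, Oas1g, Aim2, Rsad2 and Ifi44.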
